A study of Mus musculus with 3 samples.

Results

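Feedback inhibitors of growth factor signalling were read on 3 arrays of EpH4-PR cells through every probe, control spots apart, that carries the name Dusp1, Dusp4, Dusp5, Dusp6, Spry1, Spry2, Spry4, Spred1, Spred2 or Etv5. These names were found on 16 of 41174 probes and covered 9 of the 10 genes, since no spot on the arrays names Dusp5. EpH4 is a mouse mammary epithelial line, and EpH4-PR cells carry a stably transfected progesterone receptor, the A isoform as the study describes them, and were made from selected clones whose number is not given in the sources used here. The cells were cultured with 10% serum to about 75% confluence. Their RNA carried Cy5 on each of the arrays and was hybridised together with a commercial reference RNA, named Stratagene mouse standard, in Cy3, and no dyes were swapped. Vector control cells (EpH4-EV) were not analysed here. Each value below is therefore a level in EpH4-PR RNA relative to the reference RNA, and not an effect of the progesterone receptor.

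When a growth factor binds its receptor, Ras, Raf, Mek and Erk are activated in turn, and active Erk switches on genes whose products hold the same pathway back. Dusp phosphatases remove phosphate from MAP kinases, Sprouty proteins act between the receptor and Raf, and Spred proteins bring neurofibromin to Ras. Etv5 is a transcription factor of the Ets family that is switched on downstream of Erk and is commonly read, together with Dusp6 and the Sprouty genes, as a measure of pathway output. In the mammary gland, growth factor signalling through Erk takes part in branching of the ducts, and Sprouty genes restrain branching in several epithelial organs.

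The labelled cell type was checked against marker genes. Of 7 epithelial genes, 6 were at least 2-fold above the reference RNA (an adjusted p under 0.05 from limma and a log2 ratio of at least 1), while the keratin gene Krt19 was lower. All 6 mesenchymal genes were lower, as were 2 of 3 blood genes. Of all gene names, 2.76% were higher and 4.81% lower. A gene counted when at least 1 of its probes was called that way and none the other way. Vim, Col1a1, Col3a1, Cdh2 and Ptprc each also had a probe that was not called. Neither of 2 endothelial genes exceeded background clearly in Cy5 on all 3 arrays. Of 2 adipocyte genes, Adipoq did not and Plin1 did, and neither was called. The arrays had outlier spots in numbers between 3 and 150, and correlated with each other at Pearson r between 0.923 and 0.952 across probes, which are not independent replicates. Whether the 3 arrays come from separate cultures is not stated, so the p-values measure the spread between these samples, which may be technical, and the number of arrays limits the precision.

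Among the feedback inhibitors, 1 of 16 probes was called at least 2-fold higher in EpH4-PR RNA, that of Spry1, against 2.26% of all 41171 probes tested. The lower calls were those of Dusp6, Dusp1 and 1 of the 2 probes of Spry2, which makes 3 of 16 against 3.83% of all probes. In either direction 6.1% of all probes were called. The other 12 member probes were not called. By adjusted p alone, 3 member probes were higher and 7 lower, against 25.7% and 24.6% of all probes and 50.3% in either direction. The median log2 ratio was -0.21 over the member probes and -0.01 over all probes. Over all probes, 932 were called higher and 1578 lower under loess normalization, and 7031 and 708 when each array was only centred on its median, so the share of higher calls moved from 37.1% to 90.9%. Loess removes a difference between the dyes that changes with brightness. Without a dye swap, such a difference and a true one shared by probes of like brightness cannot be told apart. Values under median centring are therefore given beside the calls that they change.

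**Figure D1:**
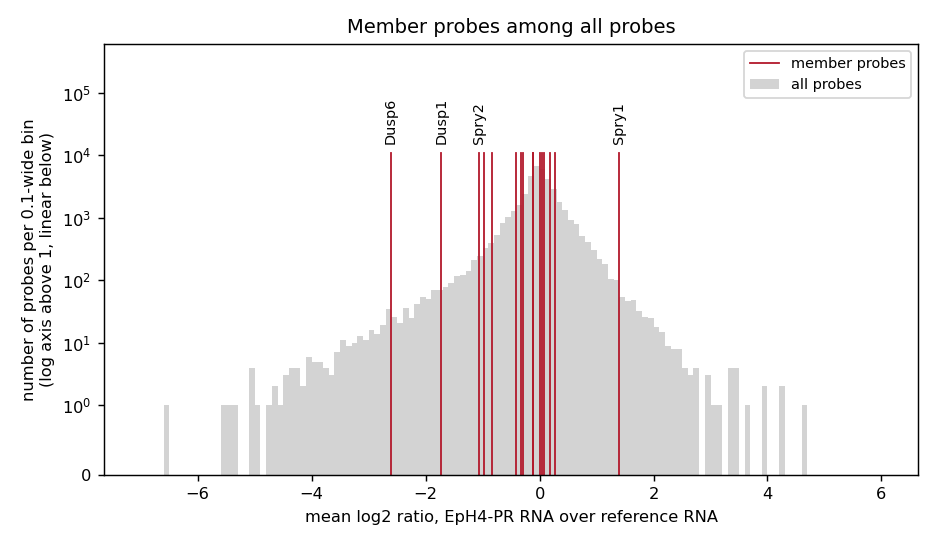
Number of probes (vertical axis, logarithmic above 1) by mean log2 ratio, EpH4-PR to reference (horizontal axis, bins of 0.1), in grey for all probes, with a red line at each of the 16 member probes; line height carries no value. Most member probes lie in the crowded centre, Spry1 lies on the right flank at 1.40, and Dusp6, at -2.61, lies farthest to the left of the members.

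The bases before the start are shown for the 4 genes with a called probe, including Spry1 and Dusp6 at either end of the range. They were read from RefSeq promoters of build GRCm38.p6, 250 bases up to the start, 5′ to 3′ on the strand of the gene. Capitals mark any match to TGACGTCA (the cAMP response element), CCGGAA (an Ets site), TGANTCA (an AP-1 site), TATAAA or the CArG box of serum response factor, searched on both strands, where matches were allowed to overlap.
Spry1, chr3:37639697-37639946, plus strand: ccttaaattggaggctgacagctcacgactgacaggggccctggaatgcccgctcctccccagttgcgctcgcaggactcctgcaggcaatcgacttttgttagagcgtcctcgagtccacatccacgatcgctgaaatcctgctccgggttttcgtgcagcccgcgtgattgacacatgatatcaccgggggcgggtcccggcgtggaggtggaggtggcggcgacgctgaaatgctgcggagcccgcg
Spry2, chr14:105896820-105897069, minus strand: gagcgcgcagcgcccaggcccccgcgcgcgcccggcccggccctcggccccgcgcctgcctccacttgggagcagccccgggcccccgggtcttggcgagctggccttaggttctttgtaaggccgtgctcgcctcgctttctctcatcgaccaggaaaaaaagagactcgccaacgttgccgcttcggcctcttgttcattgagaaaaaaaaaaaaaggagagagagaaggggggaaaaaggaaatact
Dusp1, chr17:26508473-26508722, minus strand: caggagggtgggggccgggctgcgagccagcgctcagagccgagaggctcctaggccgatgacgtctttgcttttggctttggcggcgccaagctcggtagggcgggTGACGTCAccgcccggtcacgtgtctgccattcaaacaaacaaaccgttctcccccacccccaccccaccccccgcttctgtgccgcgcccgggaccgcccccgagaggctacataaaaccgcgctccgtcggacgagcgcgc
Dusp6, chr10:99262981-99263230, plus strand: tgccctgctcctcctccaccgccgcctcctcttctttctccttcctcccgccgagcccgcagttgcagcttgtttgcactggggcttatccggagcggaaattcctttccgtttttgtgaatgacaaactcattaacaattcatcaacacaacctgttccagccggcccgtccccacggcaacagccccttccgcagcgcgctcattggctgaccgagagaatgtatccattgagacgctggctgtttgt

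Among these 4 windows the search found 1 match, TGACGTCA in Dusp1, at 143 to 136 bases before the start. This element occurs in the same window of 1.55% of all 32851 promoters. CCGGAA occurs in 12% of promoters, TGANTCA in 6.75%, TATAAA in 12.4% and the CArG box in 1.47%. Windows were read for 8 of the 10 genes. The other match to any of these elements was a pair of adjacent CArG boxes in Dusp5, the gene without a probe, between 82 and 63 bases before its start. A match describes letters only, and no binding was measured here.

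Dusp6 encodes a cytoplasmic phosphatase with a strong preference for Erk. Its probe (A_51_P502614) was the brightest of the members in both channels as deposited, with EpH4-PR intensities of 1574, 1439 and 1540 scanner units and reference intensities of 3344, 3099 and 3163 on replicates 1, 2 and 3. After background correction and loess the log2 ratios were -2.65, -2.62 and -2.57. Every array thus had less Dusp6 in EpH4-PR RNA, 6.12-fold lower on average (log2 ratio -2.61 ± 0.04, SD, n = 3; limma adjusted p = 1.31e-05). The ratio was still at -1.22 under median centring, and Dusp6 was called lower under each alternative that was run.

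Dusp1 encodes a nuclear phosphatase that acts on Jnk and p38 as well as on Erk and is itself an immediate early gene. Its probe (A_51_P430900) read 760, 695 and 705 in EpH4-PR RNA and 981, 906 and 941 in reference RNA. The log2 ratios were -1.72, -1.69 and -1.77, a mean 3.31-fold lower level (-1.73 ± 0.04, SD, n = 3; limma adjusted p = 2.27e-05). Under median centring the mean was -0.50, inside the limit of 1 log2 unit, and the call was lost.

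Dusp4, a nuclear phosphatase induced by Erk, had 2 probes that disagreed in size. A_51_P347333, designed on a cDNA clone, had log2 ratios of -0.85, -0.84 and -0.84 (mean -0.84 ± 0.01, SD, n = 3; limma adjusted p = 9.37e-05), below the fold required for a call. A_51_P518051, designed on the RefSeq transcript, had log2 ratios of -0.04, -0.14 and -0.19 (mean -0.12 ± 0.08; limma adjusted p = 0.103). The first probe lay below the second on each array, by 0.72 ± 0.08 log2 units (SD, n = 3), and by 0.15 ± 0.02 under median centring. As deposited, both probes were brighter in the EpH4-PR channel, with 609, 537 and 585 against 496, 453 and 453 scanner units for the first. The direction for Dusp4 rests on the normalization, since median centring gave 0.26 and 0.41 for the 2 probes.

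Spry1 encodes an inhibitor of receptor tyrosine kinase signalling. Its single probe (A_51_P490136) read 1370, 1238 and 1369 scanner units in EpH4-PR RNA and 271, 249 and 223 in reference RNA. The log2 ratios were 1.32, 1.37 and 1.51, so Spry1 was higher in EpH4-PR RNA on every array, 2.64-fold on average (1.40 ± 0.10, SD, n = 3; limma adjusted p = 5.37e-05). This ratio lay at percentile 99.2 of all probes. No member probe other than Spry1 exceeded 1 log2 unit above the reference, and the gap to the next probe was 0.92 log2 units between the lowest Spry1 array and the highest array of that probe. Median centring moved the mean up to 2.52, and Spry1 was called higher under each alternative that was run.

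Spry2, a related inhibitor that also binds the ubiquitin ligase Cbl, had 2 probes, both below 0 but of unequal size. A_52_P368532, designed on a cDNA clone, had log2 ratios of -0.93, -1.05 and -1.19 (mean -1.06 ± 0.13, SD, n = 3; limma adjusted p = 0.000179). A_51_P445153, on the RefSeq transcript, had -0.24, -0.26 and -0.41 (mean -0.30 ± 0.09; limma adjusted p = 0.00796). They differed by 0.76 ± 0.06 log2 units (SD, n = 3). The call of the first probe is at the limit: it was lost at -0.99 without replicate 3 and at -0.16 under median centring, while the second probe turned to 0.59 under median centring.

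Spry4, the last Sprouty gene on the list, was dim: the scanner flagged its Cy5 spots as not well above background on every array with either of its 2 probes. For A_52_P204311 the reference channel was well above background on all 3 arrays, at 135, 128 and 103 scanner units against 74.4, 72.2 and 55.0 for EpH4-PR. Negative control spots had medians of 72.6, 74.1 and 57.3 in Cy5 and 119, 121 and 91.8 in Cy3 on replicates 1, 2 and 3. The mean level of this probe was 1.33-fold lower in EpH4-PR RNA (limma adjusted p = 0.00171), and the log2 ratios were -0.46, -0.33 and -0.44. With the ratio of the scanner software the mean was -1.55 (limma adjusted p = 0.168), and with an offset of 0 it was -1.64 (limma adjusted p = 0.0148). In the main fit, the EpH4-PR side was also given a floor at the dimmest signal well above background. This probe's own signal did not lie below that floor, so the fold stayed at 1.33. Whether 1.33 is a bound is not settled by this floor, and the EpH4-PR spots lay near the negative control medians. With A_51_P250422 the gene was not well above background in either channel, and no fold is given. The 3 Sprouty genes thus held the highest member ratio, an intermediate one below 0 and a gene near background.

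Spred1 had 3 probes that went both ways. A_51_P119857, designed on a cDNA clone, had log2 ratios of -0.95, -0.97 and -0.99 (mean -0.97 ± 0.02, SD, n = 3; limma adjusted p = 6.64e-05), just under the fold required for a call. With an offset of 0 this probe was called lower at -1.28, and with the ratio of the scanner software at -1.27. The 2 probes on the RefSeq transcript lay above 0 on every array, A_52_P637689 at 0.26, 0.17 and 0.15 (limma adjusted p = 0.0219) and A_51_P422996 at 0.08, 0.08 and 0.06 (limma adjusted p = 0.19). The second of these was well above background in the reference channel on 1 of the 3 arrays and turned to -0.16 under median centring. Reference spots of A_52_P637689 read 124, 128 and 102 scanner units, and those of A_51_P422996 read 117, 123 and 94.2. Both were near the Cy3 medians of negative control spots, 119, 121 and 91.8, so their small ratios are weak evidence of a direction. The clone probe lay below A_52_P637689 by 1.16 ± 0.04 log2 units and below A_51_P422996 by 1.04 ± 0.01 (SD, n = 3 for each). The size of these gaps depends on the processing. Under median centring the clone probe was at -0.19 and the gaps were 0.27 ± 0.0013 and 0.028 ± 0.062. With the ratio of the scanner software the clone probe was at -1.27, against 0.74 for A_52_P637689 and 0.59 for A_51_P422996. The arrays give no single direction for Spred1.

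Spred2, its paralogue, was close to the reference level with both of its probes. A_51_P234185 had log2 ratios of 0.14, 0.09 and -0.08 (mean 0.05 ± 0.11; limma adjusted p = 0.528), and A_52_P452697 had 0.23, 0.02 and -0.20 (mean 0.01 ± 0.21; limma adjusted p = 0.902). Both sets of values straddled 0. Under median centring the means were 0.84 and 0.38, each with an adjusted p under 0.05.

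Etv5 had 2 probes on the same RefSeq transcript. A_51_P323579 had log2 ratios of 0.30, 0.40 and 0.12 (mean 0.27 ± 0.14, SD, n = 3, limma adjusted p = 0.0231). Its spots read 116, 118 and 100 scanner units in EpH4-PR RNA and 129, 124 and 104.5 in reference RNA. Negative control spots had Cy3 medians of 119, 121 and 91.8, so the reference side was dim. The limma adjusted p was 0.0898 without replicate 1 and 0.115 without replicate 2. The values of A_52_P631015 were 0.13, -1.05 and -0.08, and its EpH4-PR channel was well above background on 2 of the 3 arrays. Replicate 2 stood apart with a reference intensity of 197 against 110 and 98.0 on replicates 1 and 3. The mean of this probe was -0.33 ± 0.63 (SD, n = 3, limma adjusted p = 0.292), and 0.03 without replicate 2. Median centring gave -0.39 (limma adjusted p = 0.0174), below the fold required for a call. With the ratio of the scanner software the mean was -1.19 (limma adjusted p = 0.102).

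**Figure D2:**
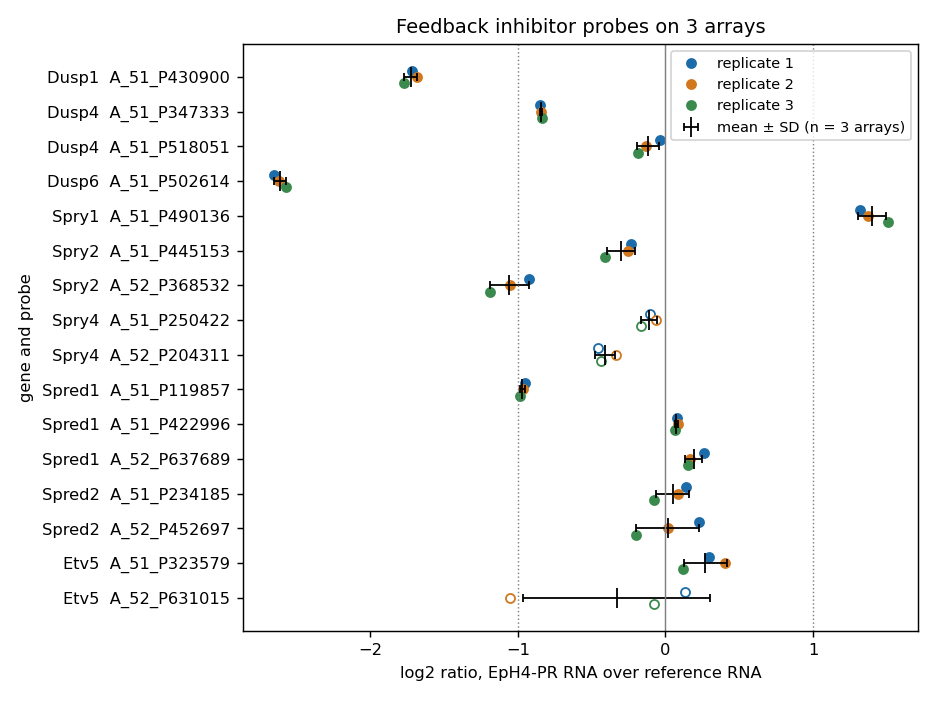
Log2 ratio, EpH4-PR to reference (horizontal axis), for each member probe (vertical axis), with a point for each of 3 replicate arrays, open where Cy5 was not well above background on each array, and a bar for the mean ± SD; dotted lines mark 1 log2 unit. The arrays of Spry1 lie at 1.32 to 1.51 and those of Dusp6 at -2.65 to -2.57, and replicate 2 of the Etv5 probe A_52_P631015 lies apart at -1.05.

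**Figure D3:**
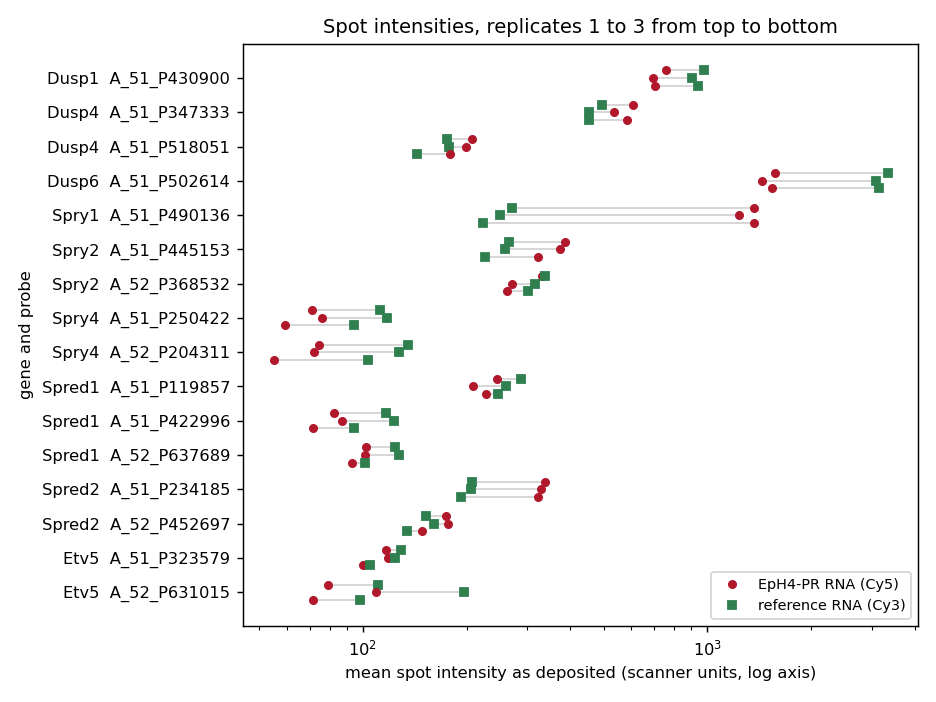
Mean spot intensity as deposited (horizontal axis, scanner units, logarithmic) of each member probe in EpH4-PR RNA (red circles) and reference RNA (green squares), with replicates 1 to 3 from top to bottom of each row. Of the 16 probes, 6 were brighter in Cy5 than in Cy3 on every array, and 3 of those 6 (both Dusp4 probes and A_51_P445153 of Spry2) had a mean log2 ratio below 0 after loess.

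Ordered by mean log2 ratio, the members ran from Spry1 at 1.40 to Dusp6 at -2.61. The array values of neighbouring probes overlapped in 8 of the 15 neighbouring pairs. Spry1 at the top, and Dusp1 and Dusp6 at the bottom, were separate from their neighbours on all arrays, whereas the probes between 0.07 and -0.12 formed an unbroken run of overlapping values. These are levels relative to each gene's own content in the reference RNA and do not rank the genes by abundance. The SD between arrays was 0.07 at the median over the members and 0.09 over all probes. Of the 16 member probes, 13 had Cy5 spots well above background on all 3 arrays, and none was saturated or an outlier on any array.

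**Figure D4:**
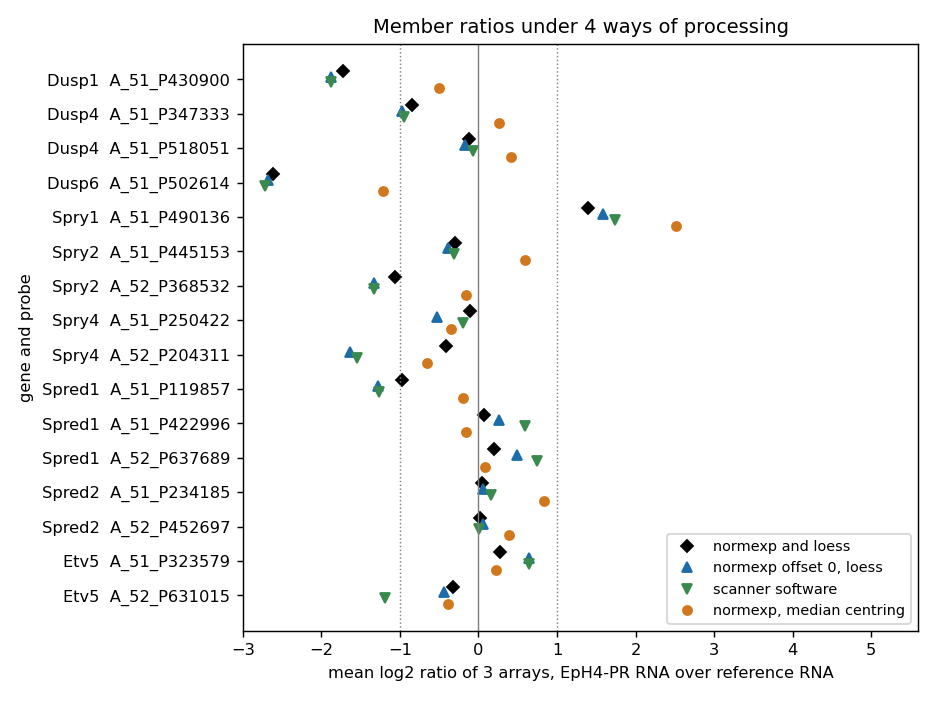
Mean log2 ratio over 3 arrays (horizontal axis) of each member probe under normexp background correction with loess (black diamonds), with an offset of 0 (blue triangles), from the scanner software (green triangles) and with median centring in place of loess (orange circles). Spry1 and Dusp6 keep their side in all 4, while both Dusp4 probes cross from below 0 to 0.26 and 0.41 under median centring.

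The rest of the pathway was read through 4 lists, in which a gene counts as higher or lower when at least 1 of its probes was called that way and none the other way. Of 53 genes with a probe, 6 were higher and 9 lower, against 2.76% and 4.81% of all 29271 gene names on the arrays counted in the same way, over 86 probes with a median log2 ratio of 0.08 against -0.01 for all probes. Under median centring the same count was 25 higher and 4 lower, where 7031 and 708 of all 41171 probes were called. The share of all gene names was not counted under that setting.

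Other members of the same families were on both sides. Of 12 such genes with a probe, 2 were higher and 4 lower, against 2.76% and 4.81% of all names, with a median log2 ratio of 0.29. The higher genes were Dusp7, an Erk phosphatase related to Dusp6 (1.14 ± 0.04, SD, n = 3), and Dusp14 (1.04 ± 0.14, with a second probe at 0.78), which was under the fold limit at 0.96 without replicate 1. The lower ones were the Ets factor Etv1 (-1.70 ± 0.10), the nuclear phosphatase Dusp2 (-1.53 ± 0.17), the Jnk and p38 phosphatase Dusp10 (-1.19 ± 0.18) and Dusp22 (-1.13 ± 0.07, with a second probe at -0.27), which was named after its values were seen to complete the count. Median centring took Dusp10 to -0.47 and Dusp22 to -0.48. Etv4, a close relative of Etv5 that was named after its values were seen, had a log2 ratio of 0.72 and was not called.

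Of 18 genes of the cascade from receptor to Erk, 3 were higher and 0 lower, against 2.76% and 4.81% of all names. The 14 that were not called included Mapk3, which encodes an Erk kinase, and the Mek genes Map2k1 and Map2k2. The phosphatase gene Ptpn11 was higher with 1 of its 3 probes (1.97 ± 0.12, SD, n = 3) and uncalled with the others at 0.66 and 0.64. Hras1 (1.44 ± 0.05) and Nras were also higher, Nras with array values of 1.17, 1.06 and 1.08 and a second probe at 0.03. Another list held regulators outside these families, of which 9 had a probe. Of these, 1 was higher and 1 lower, against 2.76% and 4.81% of all names. Tesk1, a kinase that binds Sprouty proteins, was the higher gene (1.67 ± 0.09). It is counted in this list, which was drawn up as negative regulators, but is not read here as an inhibitor of the pathway. Errfi1, an inhibitor of the Egf receptor, was lower (-1.65 ± 0.02, and -0.38 under median centring).

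Of 14 other genes known to respond to Erk, 4 were lower, 0 were higher and 10 were not called by limma, against 4.81% of all names lower and 2.76% higher. The methods' t-test with the same fold gave the same 2 counts. At an unadjusted p under 0.05 from limma, 3 of the 14 were higher and 7 lower, against 28.0% and 29.9% of all names. The lowest were the immediate early transcription factor genes Egr1 (-5.33 ± 0.05, SD, n = 3) and Fos (-4.20 ± 0.19), both also lower under median centring, at -4.08 and -3.27. Ier2 (-1.36 ± 0.06, with a second probe at -0.56) and Hbegf, a ligand of the Egf receptor (-1.23 ± 0.02), were lower by less, and median centring took them to -0.10 and -0.18. Hbegf was named after its values were seen to complete the count.

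**Figure D5:**
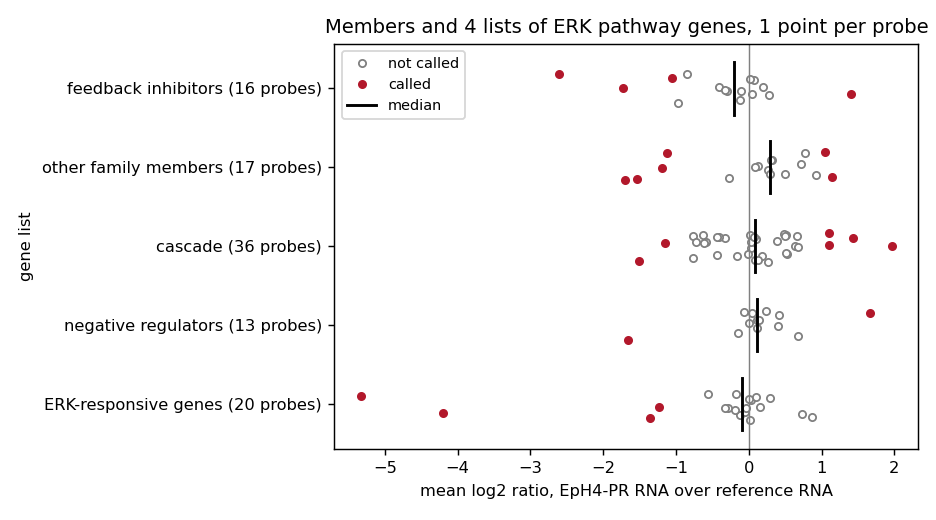
Mean log2 ratio, EpH4-PR to reference (horizontal axis), for each probe of the feedback inhibitors and of 4 lists of Erk pathway genes (vertical axis; height within a row is arbitrary), filled where called and open where not, with a black line at each median. The medians lie between -0.21 for the feedback inhibitors and 0.29 for other family members, and the 2 lowest points are Egr1 and Fos among the Erk-responsive genes.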

How the data were processed

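Arrays with 2 colours, 3 in number, of EpH4-PR RNA (Cy5) against a commercial reference RNA (Cy3) were used, as replicates 1 to 3 of the labels. The authors deposited scanner output of Agilent Feature Extraction 8.1.1.1, in which each spot has an intensity and a local background intensity in both channels, flags, and a log10 ratio (Cy5 to Cy3) that the software had background-subtracted and dye-normalized. The authors also deposited a table of their own ratios, folds and p-values for selected probes, which was not used.

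Mean intensities were corrected with normexp (offset 50), normalized by loess with control and outlier spots at weight 0, and averaged per probe in limma 3.58.1 (R 4.3.3). Each probe was fitted with lmFit and eBayes against a ratio of 0, over all 41171 probes that had values on at least 2 arrays, with Benjamini-Hochberg adjustment. Calls were made at an adjusted p under 0.05 where the log2 ratio was also 1 or more in size. The fit, but not the normalization, was also run on simulated ratios with independent normal noise and no dye effect. That run does not bear on the choice between loess and median centring. Local background lay below negative control spots (medians of 91.8 to 121 in Cy3 against 39 to 43), and the offset moves dim ratios toward 0. Probes of a gene were kept apart. All members were named; from each pathway list, the 3 highest and 3 lowest genes called and any called in both directions, apart from an item that is not reported here. Symbols were matched by name or RefSeq accession. The members and lists were chosen with earlier results of these data known.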

Additional observations from a re-analysis of the deposited data

How the results depend on the processing

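Spry1 and Dusp6 were called under each alternative run, over log2 ratios of 1.34 to 2.52 and -2.72 to -1.22. Each slide holds 1 array, so no slide block was run, and no paired analysis was possible because there is 1 group. The counts over all probes of 932 higher and 1578 lower became 3125 and 3905 with normexp offset 0, 3616 and 3887 with Feature Extraction's ratio, 7031 and 708 under median centring, and 10569 and 10122 by adjusted p alone. The methods' t-test called 929 and 1577, and 897 and 1547 after Benjamini-Hochberg adjustment. Lower member probes numbered 5 with normexp offset 0, where Spred1 (-1.28) and Spry4 (-1.64) passed, and 4 with Feature Extraction's ratio, where Spred1 (-1.27) passed. They numbered 1 under median centring and 7 by adjusted p alone, which also called 3 higher. Genes of the pathway lists called higher numbered 11 with normexp offset 0, 10 with Feature Extraction's ratio, 25 under median centring and 18 by adjusted p alone. Those called lower numbered 4 under median centring and 15 by adjusted p alone. The share of all gene names was not counted under these settings, and higher calls over all probes also rose under each of them. Leaving out single replicates gave 931 to 951 higher and 1580 to 1601 lower probes, 1 higher and 2 to 3 lower member probes, and 5 to 6 higher and 9 lower pathway genes.

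Median centring reversed both Dusp4 probes (0.26 and 0.41), A_51_P422996 of Spred1 (-0.16) and A_51_P445153 of Spry2 (0.59). A_52_P452697 of Spred2 reversed with the median spot intensity (-0.027) and ranged from -0.091 to 0.12 without single replicates, and A_52_P631015 of Etv5 ranged from -0.56 to 0.030. The cause was not tested. Offset 0 shrinks dim ratios less by construction.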
